A study of Mus musculus with 4 samples.

Results

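The genes described here encode the junctions through which the muscle cells of the heart are joined. They were chosen by symbol: Gja1, Gjc1, Dsp, Pkp2, Jup, Cdh2, Ctnna3, Dsg2, Dsc2 and Tjp1, which make up 10 of the 27998 features in the files. All 10 symbols were found, each with 1 identifier, and the rule uses no measured value. Each gene was described in every lineage and library, and cardiomyocyte (CM) nuclei were those in which Ryr2, the calcium release channel of CMs, made up at least 1% of the UMIs.

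At the intercalated disc, the end-to-end contact between CMs, 3 kinds of junction lie side by side. Gap junctions are built from connexins and pass the electrical impulse. Desmosomes anchor the intermediate filaments, and adherens junctions, with N-cadherin at their core, anchor the actin of the myofibrils. Variants in desmosomal genes are a known cause of arrhythmogenic cardiomyopathy. Other lineages of the heart use some of the same proteins in junctions of their own: endothelial cells (ECs) join through plakoglobin and ZO-1 at their borders, and mural cells of vessels carry connexin 45.

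The nuclei came from frozen right ventricles (RVs) of C57/BL6J WT mice collected at P21. In 2 libraries, sham 1 and sham 2, the mice had a sham operation at P7. In the other 2, RVVO 1 and RVVO 2, a fistula between the abdominal aorta and the inferior vena cava had been made at P7, which loads the RV with extra volume (RVVO). The labels do not say whether a library held 1 mouse or several, nor that libraries came from separate litters, so each test below measures the spread between libraries only. The fistula acts on the whole circulation, and no library came from another time point.

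Values of 4 libraries are given in the order sham 1, sham 2, RVVO 1, RVVO 2. The libraries held 8700 to 15568 barcodes and 51010039 to 64739206 UMIs, and 43031 nuclei of 53090 barcodes remained after filtering. Of these, 11452 nuclei were CM nuclei, namely 2297, 2781, 2686 and 3688. The limit did not fall in a gap, since 536 nuclei lay between 0.9% and 1% of UMIs and 594 between 1% and 1.1%. Their median depth was 4752, 4814, 8348 and 4784.5 UMIs, so RVVO 1 was sequenced deeper per nucleus. Pairs of libraries shared 28 to 70 barcodes, at most 0.540% of the smaller library. Both sham libraries carried the female transcript Xist in CM nuclei, at 1452 and 1394.5 UMIs per 1000000 (CPM), against 1.04 and 0.801 in RVVO 1 and RVVO 2. The Y-linked Uty was at 0.318 and 0.0629 in sham and at 361 and 382 in RVVO, so surgery and sex cannot be told apart in any comparison below. The CM markers were found in CM nuclei, with 42348 to 46371 CPM summed over 10 genes.

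Levels were taken as CPM over the summed nuclei of a lineage in a library, and are given as the mean ± SD of the 4 libraries. Of the 10 genes, 7 had their highest mean level in CM nuclei (Gja1, Dsp, Pkp2, Cdh2, Ctnna3, Dsg2 and Dsc2), and 3 had it elsewhere: Gjc1 in pericytes, and Jup and Tjp1 in ECs. In these data the transcripts of the CM desmosome, of N-cadherin and of connexin 43 were thus most abundant in CM nuclei, while plakoglobin and ZO-1 transcripts were most abundant in endothelial nuclei. Since 4 libraries allow no exact sign-flip p below 0.125, the order of lineages is given by whether library values overlap.

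**Figure D1:**
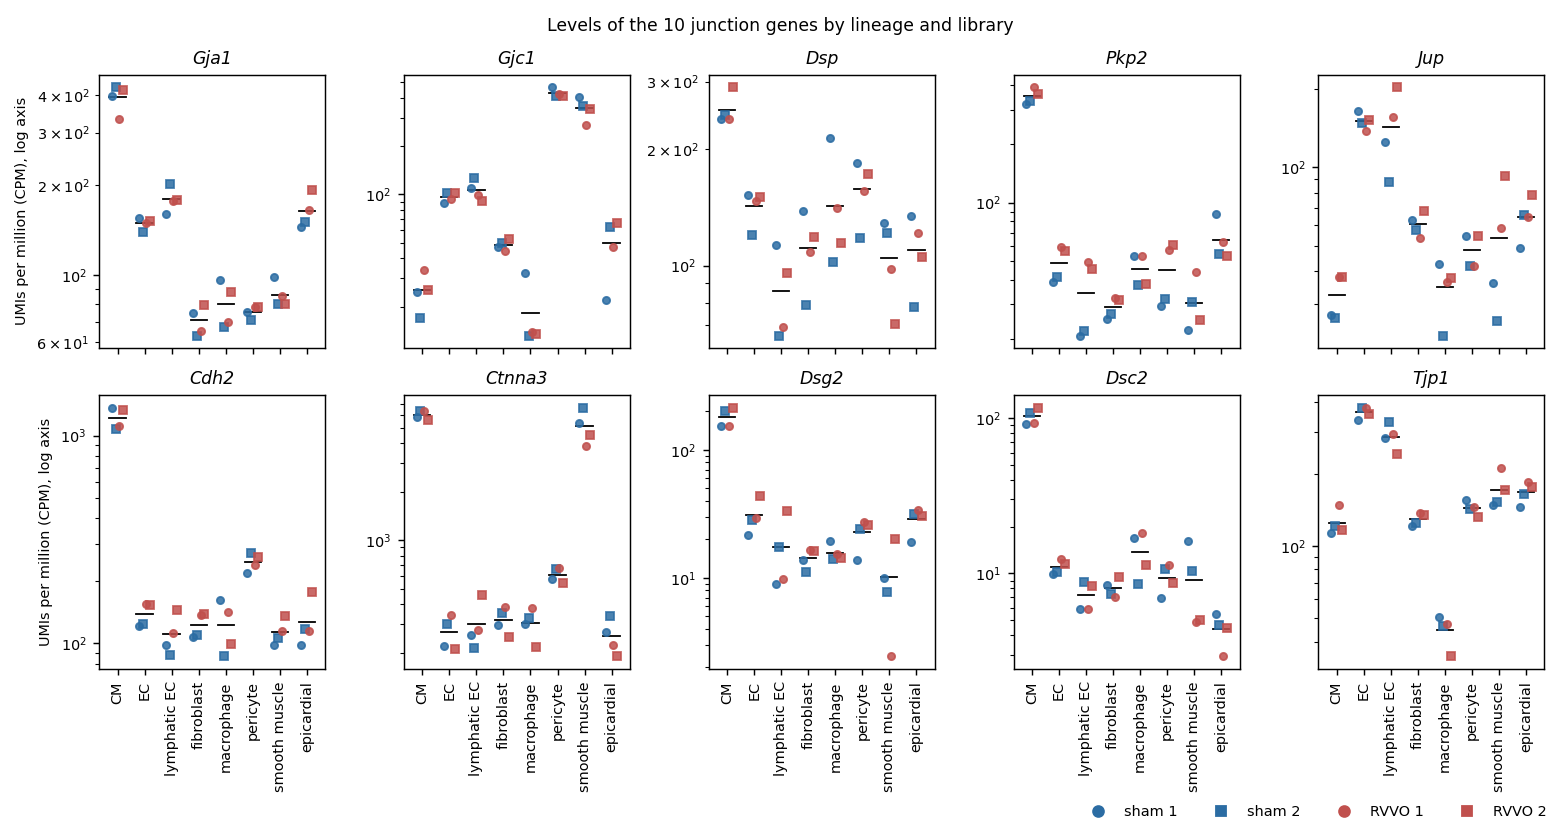
Level of each of the 10 genes in CPM (log axis, scaled to each gene) in 8 lineages; each point is 1 library (blue sham, red RVVO) and the bar is the mean of the 4 libraries. Cdh2, Pkp2, Dsg2 and Dsc2 stand apart in CM nuclei, Gjc1 is highest in pericytes at 427 CPM, and Ctnna3 is near its CM level in smooth muscle.

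RNA of CMs was also found in nuclei of every other lineage, and this bears on each level outside CM nuclei. Over 10 CM marker genes, the median level in other lineages was 30.2% to 48.9% of that in CM nuclei. It ranged from 8.13% for Trdn in epicardial nuclei to 162% for Tnni3 in pericytes. For 9 of these markers, the highest of 7 other lineages was 1.40 to 1.80 times the lowest, and for Myom1 it was 2.41 times. No expression outside CM nuclei was read from a junction gene with like low levels in all other lineages.

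Gja1 encodes connexin 43, the main gap junction protein of the ventricle. Its gene lies at chr10:56377330-56402513 of GRCm38. In CM nuclei it was at 393 ± 41.8 CPM (SD, n = 4), with 396, 426, 333 and 417 CPM in the 4 libraries. Lymphatic ECs had 180 ± 17.0, epicardial nuclei 164 ± 21.2 and ECs 149 ± 7.00 CPM (SD, n = 4 each), and neighbours in this order overlapped. The other lineages, from smooth muscle at 86.1 ± 8.60 to fibroblasts at 70.7 ± 7.90 CPM, lay below every library of ECs. CM nuclei thus held 2.64 ± 0.349 times the EC level and 5.59 ± 0.785 times that of fibroblasts (SD, n = 4).

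Gjc1 (chr11:102799579-102819700) encodes connexin 45, a connexin of the conduction system and of vessel walls. Unlike Gja1, it was highest in mural cells and low in CM nuclei. Pericytes had 465, 411, 421 and 411 CPM and smooth muscle nuclei 402, 357, 269 and 342 CPM, and their ranges did not overlap. CM nuclei had only 25.3 ± 6.89 CPM (SD, n = 4), which overlapped with macrophages at 18.2 ± 9.38 CPM. The pericyte level was 12.4 to 24.02 times the CM level within a library. ECs and lymphatic ECs were in between, at 96.6 ± 7.14 and 107 ± 15.6 CPM, and overlapped with each other.

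Among the desmosomal genes, Dsp (chr13:38151294-38198577) encodes desmoplakin, which ties the desmosome to desmin filaments. It was at 239, 245, 240 and 291 CPM in CM nuclei. In 7 other lineages it was at 85.8 to 158 CPM, 33.8% to 62.2% of the CM level, the narrowest spread of the 10 genes with a highest lineage 1.84 times the lowest. Its highest library was sham 1 in 7 of 7 other lineages, and so was that of the summed CM markers. For single CM markers, sham 1 was the highest in between 3 of these lineages (Tnnt2, Mybpc3 and Pln) and 7 (Myh6 and Tnni3). The part of free CM RNA in the Dsp levels outside CM nuclei was not tested.

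Pkp2 (chr16:16213318-16272712) encodes plakophilin 2, the plakophilin of the cardiac desmosome. It was at 351 ± 32.4 CPM in CM nuclei and at 29.0 to 64.5 CPM elsewhere, which gave 7.29 ± 0.895 times the EC level (SD, n = 4). Dsg2 and Dsc2 encode desmoglein 2 and desmocollin 2, the desmosomal cadherins of the heart. Dsg2 was at 180 ± 31.9 CPM in CM nuclei and Dsc2 at 102 ± 12.2 CPM (SD, n = 4). Next in order were ECs for Dsg2, at 30.7 ± 9.27 CPM, and macrophages for Dsc2, at 13.7 ± 4.54 CPM. Each overlapped with the lineage after it, and the Dsc2 level in macrophages came from 9 to 16 UMIs per library. The level in CM nuclei was 6.06 ± 1.15 times that in ECs for Dsg2 and 9.41 ± 1.36 times for Dsc2. Both genes lie in the cadherin cluster of chromosome 18, at 20558074-20604521 and 20030633-20059554, with 6 coding genes of the same families between them (Dsc1, Dsg1c, Dsg1a, Dsg1b, Dsg4 and Dsg3).

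Jup (chr11:100368958-100397763) encodes plakoglobin, which serves both desmosomes and adherens junctions. Although it is a core protein of the intercalated disc, its transcript had its lowest mean level in CM nuclei, at 27.2, 26.5, 38.1 and 38.1 CPM. Macrophages overlapped with CM nuclei, at 42.6, 22.7, 36.2 and 37.6 CPM. ECs had 164, 148, 138 and 152 CPM and lymphatic ECs 143 ± 49.0 CPM, which overlapped. The EC level was 3.62 to 6.05 times that of CM nuclei within a library. Per kb of gene, Jup was at 1.13 CPM in CM nuclei, against 5.92 for Pkp2, 5.36 for Dsp, 3.87 for Dsg2 and 3.54 for Dsc2.

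Of the adherens junction genes, Cdh2 (chr18:16588877-16809246) encodes N-cadherin. It was at 1364, 1074, 1110 and 1335 CPM in CM nuclei, 8.93 ± 1.68 times the EC level (SD, n = 4). Pericytes followed at 247 ± 24.4 CPM, above every library of each lower lineage and 2.03 ± 0.317 times the fibroblast level. Glia, with too few nuclei for a test, had 386 ± 100 CPM. The remaining lineages overlapped at 111 to 139 CPM.

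Ctnna3 encodes alpha T-catenin, found in the mixed junctions of the intercalated disc, where it links cadherins and desmosomes to actin. Its gene is among the longest of the genome, 1574 kb at chr10:63430098-65003667, and 99.5% of it is intron. It was at 5808, 6325, 6362 and 5538 CPM in CM nuclei, and 97.7% or more of the CM nuclei of RVVO had a UMI of it at equal depth. Smooth muscle nuclei had 5330, 6664, 3851 and 4501 CPM, which overlapped with CM nuclei. In this lineage the level was 19.8 ± 5.84 times that of ECs (SD, n = 4), while the markers of CMs were at 9.92% to 119% of their CM level. Pericytes had 611 ± 63.8 CPM, 10.2% of the CM level, above every library of ECs, lymphatic ECs, fibroblasts, macrophages and epicardial nuclei, whose means were 255 to 321 CPM. Glia overlapped with pericytes, at 376, 342, 373 and 727 CPM. Lrrtm3 and Gm10118 lie within Ctnna3 on the other strand, Gm15485 within Cdh2, and Gm16090 overlaps Dsg2. Whether reads were counted by strand was not given in the sources used here. The part of reads from these overlapping genes in the counts of the larger genes was not tested.

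Tjp1 (chr7:65296165-65527781) encodes ZO-1, a scaffold that binds connexin 43 in CMs and tight junction proteins in ECs. ECs had 335, 378, 376 and 355 CPM, 2.90 ± 0.258 times the CM level (SD, n = 4). Lymphatic ECs had 286 ± 36.3 CPM. Smooth muscle, epicardial, pericyte, fibroblast and CM nuclei lay at 125 to 171 CPM, with overlap between neighbours. Macrophages were apart from all of these at 44.7 ± 6.85 CPM, which is 35.7% of the CM level.

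**Figure D2:**
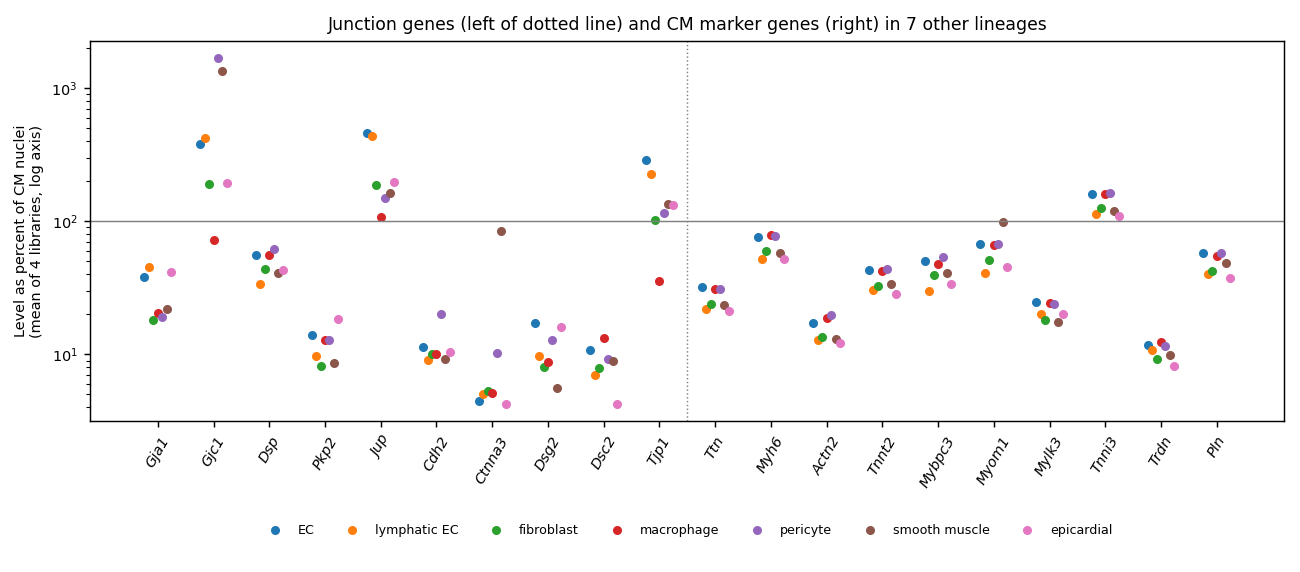
Level of the 10 junction genes and of 10 CM marker genes in 7 other lineages, as percent of the level in CM nuclei (log axis, mean of the 4 libraries; each colour is 1 lineage). Dsp clusters like the markers, at 33.8% to 62.2%, whereas Gjc1, Jup, Tjp1 and Ctnna3 spread by 4.33 to 23.4 times between lineages.

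Within CM nuclei, levels per kb of gene can be set beside each other. Gja1 was highest, at 15.6 CPM per kb, followed by Pkp2 at 5.92, Cdh2 at 5.54, Dsp at 5.36, Dsg2 at 3.87, Ctnna3 at 3.82 and Dsc2 at 3.54 CPM per kb. Gjc1, Jup and Tjp1 were the lowest, at 1.26, 1.13 and 0.541 CPM per kb. These values divide by the span of the gene with introns, and the share of reads from introns was not given in the sources used here. Ctnna3, first by CPM, was thus sixth by this measure.

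Correlations of log2(CPM + 1) over 32 sums (8 lineages in 4 libraries) are given as a description, since sums of 1 library share its depth and its free RNA. Dsg2, Dsc2, Pkp2 and Cdh2 varied together, with Pearson's r of 0.77 to 0.88 for each pair. Jup and Tjp1 had r = 0.76 with each other and -0.45 to -0.01 with those 4 genes. Among 11788 genes, the closest to Gja1 were Ctnna1 (alpha E-catenin, r = 0.92) and Casz1 (r = 0.91). The closest to Gjc1 were Mylk, the myosin light chain kinase of smooth muscle (r = 0.93), and Sgip1 (r = 0.92). Ctnna3 was closest to Dmd, the gene of dystrophin (r = 0.97), and to Filip1l (r = 0.96). Dsp was closest to Ckmt2 (r = 0.91) and Myh6 (r = 0.89), both abundant CM transcripts. For Pkp2 these were Fhod3 (r = 0.95) and Cpeb3 (r = 0.92), for Jup Trim24 (r = 0.91) and Plvap (r = 0.89), and for Cdh2 Rmdn1 (r = 0.95) and Mfn1 (r = 0.94). Dsg2 had Dpf3 and Nceh1 (r = 0.87 each), Dsc2 had Txlnb (r = 0.96) and Trdn, triadin of the calcium release unit (r = 0.95), and Tjp1 had Wwtr1 (r = 0.95) and Tanc1 (r = 0.94).

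The comparison between groups asked whether RVVO from P7 to P21 changed these genes in CM nuclei. None of the 10 was called by edgeR's quasi-likelihood test (Benjamini-Hochberg adjusted p under 0.05), where 7 of 14581 genes or 0.0480% were called. DESeq2 also called 0 of the 10. An unadjusted p under 0.05 was found for 1 of the 10, Jup, beside 7.39% of all genes tested. The median log2 fold change of the 10 genes was -0.01 and that of all genes 0.01. With 2 libraries a group, the standard error of a single gene was 0.11 to 0.25 on the log2 scale. This is not a limit of detection, and differences larger than it could also be missed. Jup, at 0.39 ± 0.14 (SE), did not pass (edgeR adjusted p = 0.672). The values below are CPM after scaling by edgeR's TMM factors (0.956, 0.964, 1.06 and 1.02). Without these factors, all log2 fold changes shift by about 0.12, and 8 of the 10 genes in place of 5 have a positive value.

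Jup had the clearest separation. Its scaled levels were 28.4 and 27.5 CPM in sham and 36.0 and 37.3 CPM in RVVO, with no overlap. The log2 fold change was 0.39 ± 0.14 (SE), with an edgeR adjusted p of 0.672. It stayed between 0.33 and 0.51 under 15 other settings and its lowest adjusted p was 0.409. Markers of other lineages were unequal in CM nuclei: the summed EC markers, of a lineage in which Jup is high, were at 276, 166, 594 and 228 CPM. Fibroblast markers were at 347, 374, 644 and 707 CPM and macrophage markers at 44.4, 45.8, 272 and 93.5 CPM, both higher in RVVO, and their part in the values of CM nuclei was not tested. In the CM nuclei of clusters named CM or atrial CM, the log2 fold change was 0.40.

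Pkp2 also lay higher in both RVVO libraries, with 334 and 346 CPM in sham and 371 and 354 CPM in RVVO, by a log2 fold change of 0.09 ± 0.11 (SE; edgeR adjusted p = 0.893). Without overlap between groups, RVVO was higher for these 2 genes, Jup and Pkp2, which is 2 of 10 beside 19.5% of all genes. It was lower without overlap for another 2, Gja1 and Ctnna3, beside 18.3% of all genes. Before TMM scaling the libraries overlapped for Gja1 and Ctnna3, and Gjc1 was higher without overlap, which makes 3 higher and 0 lower. The share of all genes without overlap was not counted before scaling. Without factors the median log2 fold change of all genes was 0.12, so no result about the junction genes was read from that count. With TMM scaling, the counts of the junction genes were close to the background.

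Connexin 43 transcripts were at 414 and 442 CPM in sham and at 315 and 407 CPM in RVVO. The log2 fold change of Gja1 was -0.25 ± 0.16 (SE; edgeR adjusted p = 0.769). RVVO 1 was the low library, and without it the value was -0.08. Before TMM scaling Gja1 was at 394, 409, 277 and 425 CPM in CM nuclei with 1% to 1.5% Ryr2. In those with at least 2% it was at 387, 425, 359 and 403 CPM, so RVVO 1 was the lowest library in both. RVVO 1 also had 241 of the 453 CM nuclei that lay in unnamed clusters, and their part in its Gja1 level was not tested. Ctnna3 was at 6080 and 6566 CPM in sham and at 6014 and 5411 CPM in RVVO, a log2 fold change of -0.15 ± 0.14 (SE; edgeR adjusted p = 0.848). The sign of Ctnna3 turned, to 0.01, with a Ryr2 limit of 2%.

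Gjc1 had 25.8 and 17.8 CPM in sham and 32.1 and 24.8 CPM in RVVO, which overlapped (log2 fold change 0.39 ± 0.25 SE; edgeR adjusted p = 0.757). Without removal of doublets it fell to 0.05, and within those clusters to 0.18. Libraries also overlapped for Dsp, Cdh2, Dsg2, Dsc2 and Tjp1. Dsp was at 251 and 254 CPM in sham and at 227 and 284 CPM in RVVO. Cdh2 was at 1428 and 1115 CPM in sham and at 1049 and 1304 CPM in RVVO. Dsg2 had 160 and 208 against 144 and 209 CPM, and Dsc2 96.1 and 112 against 88.0 and 114 CPM. Tjp1 had 119 and 126 against 140 and 114 CPM. For these 5 genes the log2 fold changes ran from -0.11 for Cdh2 to 0.05 for Tjp1, all smaller than their standard errors of 0.15 to 0.23. In each of the 5 genes the spread within RVVO was wider than the difference between the group means.

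**Figure D3:**
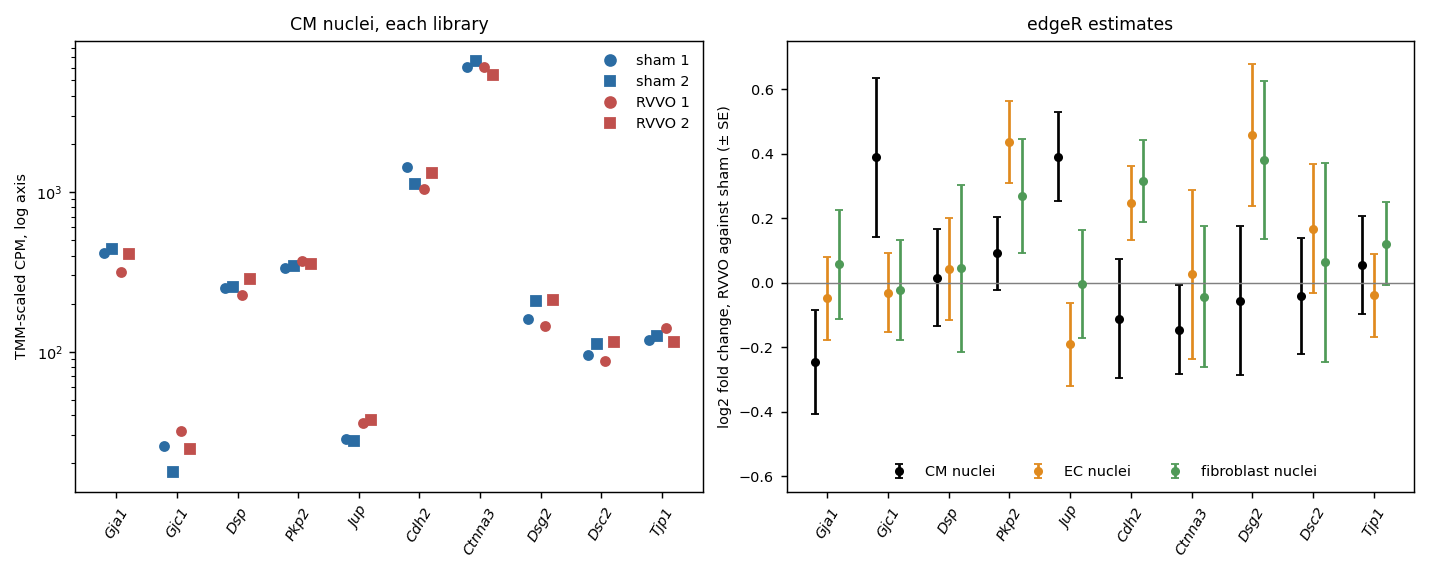
Left, TMM-scaled CPM (log axis) of the 10 genes in CM nuclei, 1 point per library (blue sham, red RVVO). Right, edgeR log2 fold change of RVVO against sham with its standard error in CM, EC and fibroblast nuclei; the CM values run from -0.25 for Gja1 to 0.39 for Jup, and none of the 30 points passed the test.

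As a second measure, the share of CM nuclei with at least 1 UMI of each gene was taken after each nucleus had been thinned to 1000 UMIs. Nuclei with fewer UMIs were left out, 64, 129, 1 and 0 in the 4 libraries. The mean number of the 10 genes found per CM nucleus was 2.71, 2.75, 2.84 and 2.96. At 2 libraries a group an exact permutation test cannot give a p below 0.333, the value found here (two-sided). Neither this mean nor the shares below carry TMM scaling. Without TMM factors the median log2 fold change of all genes in CM nuclei was 0.12. No share over all genes is given beside them, so no rise of the junction genes was read from them. Pkp2 was found in 24.4% and 26.2% of sham and in 32.5% and 28.6% of RVVO nuclei (exact p = 0.333). Jup was found in 2.73% and 2.98% of sham and in 3.46% and 4.23% of RVVO nuclei (exact p = 0.333), near the level of 1 UMI in few nuclei. Gja1 was found in 30.8%, 30.02%, 28.4% and 32.5% of the nuclei (exact p = 1). The share of Ctnna3 was 93.8% and 96.1% in sham and 98.2% and 97.7% in RVVO, against the direction of its CPM, so no order was read from it. No UMI of any of the 10 genes was found in 1.21%, 0.716%, 0.298% and 0.352% of CM nuclei, and 5 or more of the genes in 5.19%, 7.32%, 7.78% and 9.27%. Without thinning the mean number of genes was 5.21, 5.37, 6.69 and 5.87, highest in the deepest library. For comparison, Pkp2 was found in 4.08%, 4.26%, 5.53% and 6.48% of EC nuclei at 1000 UMIs, where median depths were 2046, 1758, 2875 and 2394 UMIs before thinning.

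CM nuclei fell into several clusters, and these were unequally filled: the cluster led by the interferon-induced genes Gbp6 and Iigp1 had 1595 of its 1845 CM nuclei from sham 1, and clusters led by Fstl4 and by Hs3st5 held most of the other libraries. The 10 genes had been kept out of the clustering. Gja1 was at 389 to 421 CPM in the 5 clusters named CM (UMIs of all libraries pooled). The cluster of atrial-type nuclei, with 274 CM nuclei of which 112 were from sham 2 and 141 from RVVO 2, differed in its mix. There Dsc2 was at 229 and 165 CPM and Dsg2 at 253 and 322 CPM in these 2 libraries, against 108 and 117 and 200 and 214 CPM in all their CM nuclei. Cdh2 was at 668 and 856 CPM, below the 1074 and 1335 CPM of all CM nuclei, and Gja1 at 320 and 319 CPM. A cluster led by the guidance genes Sema3a, Ephb1 and Slit2, with 473 nuclei, had Gjc1 at 60.7, 40.6, 37.1 and 42.2 CPM, against 24.6, 17.1, 33.9 and 25.4 CPM in all CM nuclei, and Pkp2 at 417 to 521 CPM. These are descriptions of clusters and were not tested.

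In the other lineages, edgeR called none of the junction genes. In ECs 32 of 13348 genes or 0.240% were called and 0 of 10 junction genes, with 1 unadjusted p under 0.05 among them (Pkp2), beside 9.34% of all genes. The percentages called were 0.101% in fibroblasts, 0.0842% in macrophages, 0.0608% in pericytes, 0.302% in smooth muscle and 0.101% in epicardial nuclei. Unadjusted p under 0.05 were found for 1 gene of 10 in fibroblasts (Cdh2), beside 4.23% of all genes, and for 1 of 10 in pericytes (Pkp2), beside 4.46%. In smooth muscle they were found for 2 of 8 (Jup and Dsp), beside 9.75%. DESeq2 called none of the tested genes in these lineages either. Dsg2 and Dsc2 in smooth muscle and Dsc2 in epicardial nuclei had too few UMIs to be tested.

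Besides CM nuclei, RVVO was higher for Pkp2 without overlap in 3 of the lineages tested and overlapped with sham in the others. RVVO was higher without overlap for 18.7% of all genes in ECs and 15.2% in fibroblasts. This share was not counted in pericytes or over several lineages, so no result was read from the number of lineages. In ECs it was at 41.3 and 42.0 CPM in sham and at 58.8 and 53.9 CPM in RVVO, a log2 fold change of 0.44 ± 0.13 (SE; edgeR adjusted p = 0.291). In pericytes it was at 30.8 and 31.9 CPM in sham and at 59.1 and 60.2 CPM in RVVO, from 34 to 71 UMIs per library. The log2 fold change was 0.92 ± 0.23 (SE), and the edgeR adjusted p was 0.423. Fibroblasts had 26.2 and 26.5 CPM in sham and 32.6 and 31.0 CPM in RVVO. In macrophages, smooth muscle and epicardial nuclei the groups overlapped. Lymphatic ECs, which were not tested, had 20.8 and 21.9 CPM in sham and 49.4 and 45.7 CPM in RVVO, before scaling. Pkp2 levels in the 3 lineages were 8.25% to 13.97% of that in CM nuclei, while the CM markers were at 9.27% to 162% of theirs, and the share of CM nuclei among all nuclei was 20.3% and 21.8% in sham and 35.0% and 32.8% in RVVO. The part of free CM RNA in these differences was not tested. Summed CM markers in pericytes were 25487, 15554, 19993 and 19726 CPM and did not separate the groups. As percent of its CM level, the CM marker Actn2 was higher in both RVVO libraries in ECs, pericytes and fibroblasts. So were Tnnt2, Mylk3 and Tnni3 in ECs, and Tnni3 in fibroblasts. Tnni3 was at 156%, 136%, 191% and 162% in ECs and at 130%, 96.6%, 146% and 134% in fibroblasts. The remaining CM markers overlapped in both lineages. In pericytes Actn2 was at 19.99% and 13.34% in sham and at 24.02% and 25.47% in RVVO, and the other CM markers overlapped. No result about free CM RNA was therefore read from the sum.

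In ECs RVVO was higher without overlap for 4 of 10 junction genes (Pkp2, Cdh2, Dsg2 and Dsc2), beside 18.7% of all genes, and lower for 1 (Jup), beside 19.3%. Cdh2 was at 128 and 125 CPM in sham and at 154 and 147 CPM in RVVO (log2 fold change 0.25 ± 0.12 SE; edgeR adjusted p = 0.606). Dsg2 was at 22.6 and 28.9 CPM in sham and at 29.1 and 41.7 CPM in RVVO (0.46 ± 0.22 SE; edgeR adjusted p = 0.625). Its nearest libraries, at 28.9 and 29.1 CPM, were thus barely apart. Dsc2 was at 10.4 and 10.3 CPM in sham and at 12.3 and 10.9 CPM in RVVO, from 66 to 86 UMIs per library. Its log2 fold change of 0.17 ± 0.20 (SE; edgeR adjusted p = 0.918) was smaller than its standard error. Jup was at 173 and 150 CPM in sham and at 137 and 145 CPM in RVVO (log2 fold change -0.19 ± 0.13 SE; edgeR adjusted p = 0.789). Gja1, Gjc1, Dsp, Ctnna3 and Tjp1 overlapped between the groups.

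The makeup of the EC lineage also differed between groups. The 11466 EC nuclei fell into 5 clusters. The cluster led by Zfp366 made up 31.8% and 35.0% of EC nuclei in sham and 22.1% and 10.7% in RVVO. It had the highest average Gja1, Dsp and Ctnna3 of the 5, and its part in the EC comparisons was not tested. The CM transcripts Ttn and Ryr2 were also highest on average in this cluster, at 10293 and 1804 CPM. The part of free CM RNA in its levels was not tested. The cluster led by Nrg1, Vwf and Npr3, genes known from the endocardium, made up 7.59% and 6.87% of EC nuclei in sham and 15.9% and 25.2% in RVVO. Within it Dsg2 was at 58.4, 68.0, 64.6 and 105 CPM, against 15.1 to 28.3 CPM on average in the other 4 EC clusters. Cdh2 was at 218, 220, 230 and 255 CPM and Pkp2 at 72.3, 74.8, 99.5 and 80.8 CPM. The cluster led by Zfp366 overlapped with it for both genes, with Cdh2 at 163, 153, 242 and 193 CPM and Pkp2 at 51.0, 50.1, 70.1 and 113 CPM. Gja1 was low in the Nrg1, Vwf and Npr3 cluster, at 69.8, 51.7, 69.9 and 74.9 CPM, against 174 CPM on average in the largest cluster. It was also low in the cluster led by Kirrel3, at 74.3, 77.1, 81.9 and 94.0 CPM, which overlapped. Of CM transcripts, Ttn was at 4961 CPM on average in the cluster led by Nrg1, Vwf and Npr3, against 6042 to 10293 CPM in the other 4. Ryr2 was at 951 CPM on average there, against 1052 to 1804 CPM. In RVVO 1 alone Ryr2 was at 1405 CPM there, within the 1201 to 2302 CPM of the other 4. The part of free CM RNA in the levels of this cluster was not tested. In EC nuclei outside this cluster, an alternative added after these values were seen, the log2 fold change was -0.10 for Dsg2, 0.09 for Cdh2, 0.31 for Pkp2 and -0.05 for Jup, which was at 76.2 CPM on average in that cluster against 113 to 181 CPM in the other 4. The lowest of the 10 genes' edgeR adjusted p was 0.861. The cluster led by St8sia6 held Gja5, the arterial connexin 40, at 119 CPM on average against 1.38 to 2.11 CPM in the others, with Gja1 at 135, 141, 220 and 233 CPM.

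**Figure D4:**
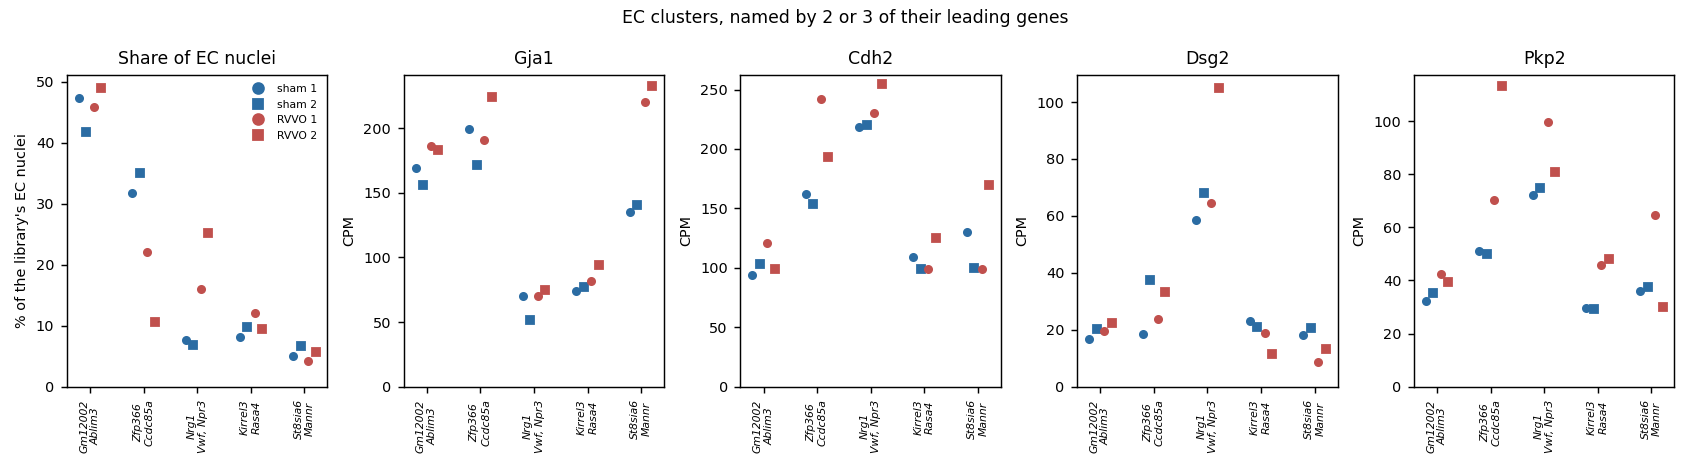
Share of each of 5 EC clusters among the EC nuclei of a library, in percent, and CPM of Gja1, Cdh2, Dsg2 and Pkp2 in each cluster; each point is 1 library (blue sham, red RVVO). The cluster led by Nrg1, Vwf and Npr3 is larger in RVVO, at 15.9% and 25.2% of EC nuclei, and has the highest Dsg2. Its Gja1 is the lowest on average but overlaps with that of the cluster led by Kirrel3. The cluster led by Zfp366 is smaller in RVVO, at 22.1% and 10.7%.

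In fibroblasts RVVO was higher without overlap for 4 of 10 genes (Pkp2, Cdh2, Dsg2 and Tjp1), beside 15.2% of all genes, and lower for 0, beside 16.4%. Cdh2 was at 111 and 108 CPM in sham and at 138 and 136 CPM in RVVO, a log2 fold change of 0.32 ± 0.13 (SE; edgeR adjusted p = 0.9998). Tjp1 was at 125 and 123 CPM in sham and at 138 and 132 CPM in RVVO (0.12 ± 0.13 SE).

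In smooth muscle, with only 63 to 182 nuclei per library, Jup was at 39.6 and 28.5 CPM in sham and at 61.1 and 97.0 CPM in RVVO, from 10 to 37 UMIs (log2 fold change 1.19 ± 0.39 SE; edgeR adjusted p = 0.275). EC markers in the same nuclei summed to 1752, 785, 3577 and 2504 CPM, so that they were also higher in RVVO, and their part in the Jup value was not tested. Ctnna3 was at 5828 and 7346 CPM in sham and at 4005 and 4700 CPM in RVVO (-0.60 ± 0.28 SE; edgeR adjusted p = 0.516), while smooth muscle markers summed to 5627, 7038, 4050 and 5735 CPM. CM markers in these nuclei summed to 20462, 14895, 13341 and 13534 CPM, also lower in RVVO, and their part was not tested. Gjc1 had 440 and 393 against 280 and 357 CPM (-0.39 ± 0.24 SE; edgeR adjusted p = 0.654). With each nucleus named on its own in place of clusters, Jup turned to -0.02 and Ctnna3 to 0.18. That definition gave a Cdh2 level of 688 CPM in smooth muscle, against 114 CPM with clusters, so these values belong to a different mix of nuclei.

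Whether the effect of RVVO differed between CM nuclei and another lineage was tested directly, with the library as a block. No gene passed for CM against EC nuclei or for CM against fibroblast nuclei, and 0 of the 10 junction genes did. Without RVVO 2, 692 genes passed against ECs and 687 against fibroblasts, none of them a junction gene. The largest difference was that of Jup against ECs, 0.60 ± 0.16 (SE; edgeR adjusted p = 0.696), and the next that of Dsg2 against ECs, -0.49 ± 0.16 (SE; edgeR adjusted p = 0.724). The opposite signs of Jup in the 2 lineages were therefore not shown to differ after adjustment.

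Genes that act beside these were taken from 4 lists. Of 20 intercalated disc partners, all 20 were tested in CM nuclei and none was called in either direction. Their median log2 fold change was -0.04, and 4 had an unadjusted p under 0.05. Ank2 (ankyrin B), Lmo7, Ctnna1 (alpha E-catenin) and Ank3 (ankyrin G) were the most abundant. Ctnna1 was at 1371, 1165, 1043 and 1029 CPM before TMM scaling, a log2 fold change of -0.41 ± 0.14 (SE; edgeR adjusted p = 0.672), and the values of the other 3 ran from -0.18 to 0.02. Of 11 other connexins and pannexins, 5 were tested and none was called. Gja3 was the most abundant of them, at 25.9, 22.2, 30.9 and 24.6 CPM (0.09 ± 0.18 SE), and Gja5 followed at 0.715 to 1.51 CPM. Of 9 other desmosomal genes, 4 were tested and none was called, with Perp at 11.01 to 20.9 CPM and Dsg3 at 3.58 to 5.28 CPM. The other desmogleins, desmocollins and plakophilins of the list had too few UMIs for the test. Of 10 endothelial junction genes, 9 were tested in CM nuclei and none was called, with Jam2 at 40.7 to 55.1 CPM. In ECs all 10 were tested, with 0 called and a median log2 fold change of -0.13. RVVO was higher without overlap for 3 of them and lower for 4, beside 18.7% and 19.3% of all genes. The values ran from -0.77 ± 0.34 (SE) for Cldn5 to 1.81 ± 0.34 (SE; edgeR adjusted p = 0.103) for Ocln. Cgnl1 had the lowest adjusted p, at 0.93 ± 0.14 (SE; edgeR adjusted p = 0.0693). It was among the leading genes of the EC cluster with Nrg1, Vwf and Npr3.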

How the data were processed

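Single-nucleus RNA was measured in 4 RV libraries (10x 3′ v3, NovaSeq). The authors deposited matrices of UMI counts, as whole numbers without scaling. Their headers name Cell Ranger 5.0.0, whereas the submitters' processing notes name Cell Ranger 3.0.1, STAR, Seurat 3.0.2 and GRCm38 (mm10). Their annotation, and whether introns or strand entered the counting, were not given in the sources used here. Positions were taken from GENCODE (GRCm38), which holds 27645 of the 27998 identifiers.

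Filters asked for 200 genes or more and less than 10% mitochondrial UMIs, and the highest doublet scores, at 0.8% per 1000 barcodes, were removed. Nuclei were grouped by Leiden clustering (leidenalg 0.10.2, resolution 1) on 30 principal components of 2000 variable genes with 15 neighbours, without the junction genes and Ryr2. Clusters were named from marker genes with thresholds set after the clusters had been seen, and clusters with markers of several classes stayed unnamed. Lineages other than CM were nuclei of named clusters with Ryr2 under 1% of UMIs, and were tested with at least 50 nuclei in each library. Lymphatic ECs, with 102, 95, 98 and 69 nuclei, met this limit but were not among the lineages chosen for the test. Glia, with 41 nuclei in RVVO 1, did not meet it. Both are given as levels only.

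Counts were summed per library and lineage and tested with edgeR 4.0.16 in R 4.3.3 (its filter on low counts, TMM factors, quasi-likelihood F test, Benjamini-Hochberg adjustment over all genes tested). The standard error was taken from the F statistic. The procedure was tested on simulated data. DESeq2 1.42.0, other factors, filters, Ryr2 limits, depths, ways of naming nuclei, the replicate number as a block and omission of single libraries were alternatives. Shares were compared by exact permutation tests in scipy 1.17.1. Same-numbered libraries had a correlation of deviations of 0.0495 over 14581 genes, so the numbers were not treated as pairs. The depth limits precision, and a count of few UMIs carries counting error beside the spread between libraries.

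The 10 genes and the gene lists were chosen with earlier results of these data known. Named genes were the 10 in every library, the most abundant genes of each list in CM nuclei, and for each of the 10 the 2 genes with the highest correlation over lineages and libraries. Endothelial junction genes with the lowest and highest log2 fold change and the lowest adjusted p in ECs were also named.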

Additional observations from a re-analysis of the deposited data

Results flagged for a closer look

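Jup moved in opposite ways in CM and EC nuclei: RVVO was higher than sham in CM nuclei and lower in EC nuclei, without overlap of TMM-scaled libraries in either. Before scaling the EC libraries overlapped. The difference between the log2 fold changes was 0.60, with an edgeR adjusted p of 0.696, so it did not pass after adjustment over 14954 genes. Leaving out each library in turn gave differences of 0.53 to 0.63. The log2 fold change of Jup in ECs went from -0.19 to -0.05 outside the EC cluster led by Nrg1, Vwf and Npr3, in which Jup was at 76.2 CPM on average. The part of EC RNA in CM nuclei in the difference between CM and EC nuclei was not tested. Before scaling, lymphatic ECs, which were not tested, had Jup at 125 and 87.7 CPM in sham and 156 and 203 CPM in RVVO. Of the EC clusters, that led by St8sia6 had Jup higher in RVVO, at 92.2, 114, 129 and 163 CPM. The libraries of the other EC clusters overlapped. With TMM scaling RVVO was also higher in smooth muscle and epicardial nuclei, and fibroblasts, macrophages and pericytes overlapped.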

How the results depend on the processing

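None of the 10 junction genes was called under any of 15 alternatives in CM nuclei, 10 in ECs or 9 in each other lineage, and 7 of the 10 had their highest level in CM nuclei under each way of naming nuclei tried. The number of all genes called in CM nuclei was less stable. It was 7, but 96 with DESeq2, 38 with no filter on low counts and 6 to 227 when single libraries were left out (227 without RVVO 2). With the replicate block, a paired fit by replicate number, it was 2, and no junction gene was called. In ECs all genes called ran from 11 to 230 against 32, and in fibroblasts from 8 to 193 against 13. Against 0 genes, 692 (ECs) and 687 (fibroblasts) differed in effect from CM nuclei without RVVO 2. The cause was not tested. The difference in the mean number of genes per nucleus, taken without TMM scaling, stayed positive, at 0.11 to 0.99. The value of 0.99 came without thinning, where the number was highest in the deepest library, so it is not at equal depth.

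Several log2 fold changes close to 0 turned sign in CM nuclei. Dsp gave -0.083 with a Ryr2 limit of 0.5%, Cdh2 0.00401 without factors and Ctnna3 0.0091 with a limit of 2%. Without factors, with a limit of 2%, in CM clusters, without doublet removal and thinned to 1000 UMIs, Dsg2 gave 0.057, 0.076, 0.0499, 0.027 and 0.12, and Dsc2 0.073, 0.11, 0.079, 0.053 and 0.021. Leaving out single libraries gave -0.15 to 0.16 for Dsp, -0.29 to 0.073 for Cdh2, -0.34 to 0.18 for Dsg2, -0.23 to 0.13 for Dsc2 and -0.11 to 0.20 for Tjp1. In ECs the same gave -0.15 to 0.062 for Gja1, -0.11 to 0.055 for Gjc1, -0.14 to 0.26 for Dsp, -0.41 to 0.36 for Ctnna3 and -0.11 to 0.029 for Tjp1, and in pericytes -0.19 to 0.034 for Gjc1.

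In ECs outside the cluster led by Nrg1, Vwf and Npr3, chosen after seeing the data, Gja1 gave 0.11, Gjc1 0.12, Ctnna3 -0.030, Dsg2 -0.10 and Tjp1 0.082. With the replicate block Ctnna3 gave -0.010 in ECs. With each nucleus named on its own, Dsp gave -0.13 in ECs, Jup -0.016, Dsp 0.12 and Ctnna3 0.18 in smooth muscle, and Ctnna3 0.88 in epicardial nuclei, where any Ryr2 share gave 0.31. In macrophages the naming of each nucleus on its own took the median of the 10 genes from -0.10 to 1.28, with Ctnna3 at 1.87 and Dsg2 at 1.62. An unadjusted edgeR p under 0.05 was found for 6 of 10, beside 2115 of all 12232 genes tested. In the main macrophage fit it was found for 0 of 10, beside 667 of 9503. That naming raised mean Cdh2 from 122 to 177 CPM in macrophages and from 114 to 688 CPM in smooth muscle.

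The RVVO minus sham share of CM nuclei with Gja1, in percentage points, was -2.02 at 2000 UMIs, -0.463 with a Ryr2 limit of 2% and -0.134 without doublet removal. Leaving out single libraries gave -1.97 to 2.12 for Gja1, -0.0790 to 1.22 for Gjc1, -1.60 to 5.30 for Cdh2, -0.526 to 4.72 for Dsg2, -0.787 to 1.81 for Dsc2 and -0.851 to 2.25 for Tjp1. With 2 libraries a group, the standard errors given are not limits of detection, and changes larger than them could also be missed.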
